A study of Danio rerio with 6 samples.

Results

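Heme oxygenase, ferritin and iron transport genes were followed in zebrafish embryos exposed to Tan I (Tanshinone I), a lipid-soluble diterpene of the herb Salvia miltiorrhiza. The members were 10 genes taken by symbol, chosen with earlier results of these data known: hmox1a, hmox1b and hmox2a (heme oxygenases), blvrb (a biliverdin reductase), fth1a (a ferritin heavy chain), slc40a1 and slc11a2 (membrane iron transporters), tfa (transferrin), hamp (hepcidin) and cp (ceruloplasmin). Of these, 9 were among the 21317 genes of the table, and all 9 had the mean of at least 10 over the 6 libraries that was required for a test, as had 20836 genes in all. No row carried the symbol hmox1b, and that gene was not analysed here.

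The Tan I group held 3 libraries from 72 hpf (hours post-fertilization) embryos that had been kept in 60 µM Tan I from 30 hpf. The DMSO group held 3 libraries from embryos of the same age kept in the solvent alone. Both groups were Tg(c-mybhyper:GFP) fish, a line in which c-myb is hyperactive and myelopoiesis is expanded, so the controls carried the transgene as well and wild-type fish were not analysed here. The number of embryos per library and whether libraries came from separate clutches were not given in the sources used here, so p-values measure the spread between these libraries, which may be technical.

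Heme oxygenases open the ring of heme and release iron, carbon monoxide and biliverdin, which biliverdin reductases turn over further. Freed iron is stored inside ferritin, a shell whose heavy chain oxidizes iron, or leaves the cell through ferroportin, the product of slc40a1. In plasma, ceruloplasmin oxidizes iron, transferrin carries it, and the liver hormone hepcidin makes ferroportin be degraded. In mammals, the transcription factor Nrf2 drives HMOX1, BLVRB and ferritin genes, Bach1 represses HMOX1, and iron regulatory proteins control ferritin and ferroportin mostly at translation, a step that RNA counts do not measure. Zebrafish mutants in slc40a1 (weissherbst), slc11a2 (chardonnay) and tfa (gavi) are anemic, so these genes are best known in the embryo for supplying iron to red cells.

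The recovered reads numbered 20451593 to 24932190 in the Tan I libraries and 15874701 to 16959503 in the DMSO libraries, so each Tan I library was the deeper. On the first principal component, which held 37.2% of the variance, Tan I replicate 3 lay at 9.75 and was the Tan I library nearest to DMSO, the other 2 being at 26.7 and 24.8. The label names embryonic cells and the extraction names embryos. All 54 rows of the erythroid, liver, macrophage, granulocyte and enterocyte marker lists had reads in every library. In such bulk samples, fewer cells of a type and less RNA per cell cannot be told apart.

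To ask which of the members respond to Tan I, their normalized read counts (reads per gene divided by a size factor per library) were compared between the groups with limma on the log2(value + 1) scale, and the difference of the group means on it is called the log2 change. It is a scale that understates the change of weak genes. A gene was called where its Benjamini-Hochberg p, adjusted over all tested genes, was under 0.05. Of the 9 members, 3 were called. In Tan I embryos hmox1a and blvrb rose and tfa fell. Among all tested genes 2.57% were called, 2.07% higher and 0.504% lower. The groups did not overlap for 5 of the 9 members, the 3 called ones together with hamp and fth1a, against 21.1% of all tested genes. The median log2 change was 0.19 over the 9 members and -0.01 over all tested genes.

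**Figure D1:**
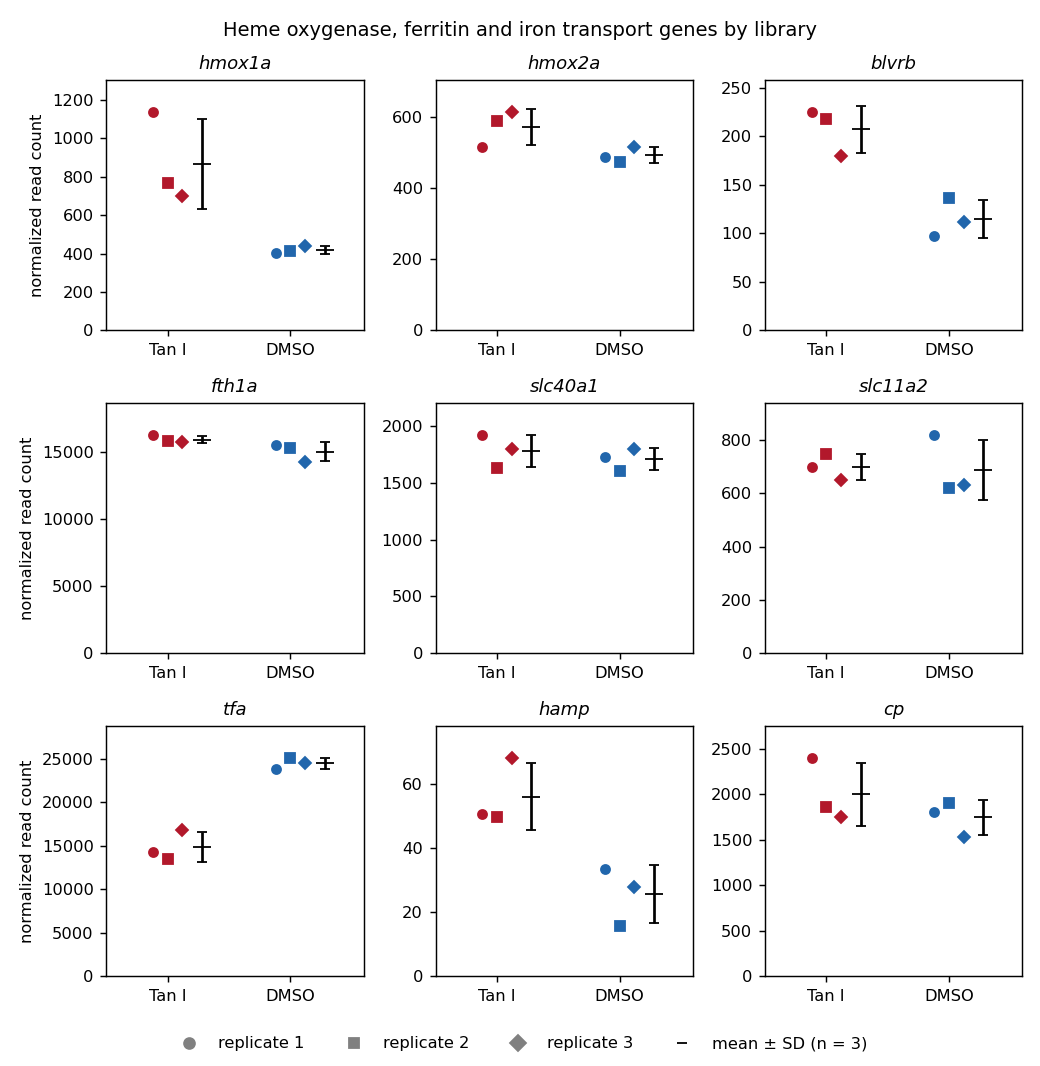
Normalized read count (vertical axes, from 0) of each member in the 3 Tan I libraries (red) and the 3 DMSO libraries (blue), with the symbol of a point giving the replicate number and the black bar the mean ± SD. The Tan I libraries lie above the DMSO libraries for hmox1a and blvrb, and below them for tfa, with 13460 to 16779 in Tan I and 23866 to 25056 in DMSO.

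The first step of heme breakdown was compared first. The inducible heme oxygenase gene hmox1a (ENSDARG00000027529) had a normalized count of 1135, 766 and 702 in Tan I replicates 1 to 3, against 405, 412 and 440.4 in DMSO replicates 1 to 3. All Tan I libraries lay above all DMSO libraries, and Tan I replicate 1 stood above the other 2. The mean was 868 ± 234 in Tan I and 419 ± 19.0 in DMSO (SD, n = 3), or 1.02 ± 0.14 (SE) as the log2 of the fold change, with an adjusted p of 0.00142 in limma. These counts rested on 816 to 1460 reads per Tan I library and 339 to 396 reads per DMSO library. The spread within Tan I, a coefficient of variation of 26.9%, was wider than that within DMSO, at 4.54%. Without Tan I replicate 1 the log2 change was 0.81 and the call held. Without the mean-variance trend of limma, the call was lost at an adjusted p of 0.0792, and the adjusted p lay between 5.49e-10 and that value across 18 alternatives.

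The constitutive heme oxygenases did not pass the test. hmox2a (ENSDARG00000114695) had 515, 589 and 612 in Tan I replicates 1 to 3, against 487, 472 and 516 in DMSO replicates 1 to 3. Tan I replicate 1 lay just under DMSO replicate 3, so the groups overlapped. Its log2 change was 0.22 ± 0.09 (SE) with a 95% interval of 0.02 to 0.41 and an adjusted p of 0.272. Its paralog hmox2b (ENSDARG00000078452), which is no member and belongs to the list of heme transport and breakdown, averaged 234 in Tan I and 246 in DMSO, with a log2 change of -0.07 ± 0.11 (SE, adjusted p 0.804).

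As a comparison of hmox1a with its paralogs inside each library, its share of the normalized reads of the 3 heme oxygenase genes in the table was taken. This share was 60.8%, 47.7% and 45.3% in Tan I replicates 1 to 3, against 35.8%, 36.7% and 36.2% in DMSO replicates 1 to 3. Longer transcripts give more reads, so neither the share nor its difference between groups is one of molecules. The mean was 51.3 ± 8.37% in Tan I and 36.2 ± 0.491% in DMSO (SD, n = 3), a difference of 15.1 percentage points. The groups did not overlap, and an exact 2-sided permutation test gave p = 0.1, the smallest that 3 libraries against 3 allow. The difference ran from 10.3 to 18.1 points when single libraries were left out, with the lowest value without Tan I replicate 1. This was 1 of 3 such ratios, and adjustment over the 3 left p at 0.1 in this exact test. As hmox1a was chosen with earlier results known and the other 2 ratios after their values were seen, this p is given as a description only.

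The next step of the pathway belongs to the biliverdin reductases. The normalized count of blvrb (ENSDARG00000096829), whose human counterpart reduces flavins as well as biliverdin isomers, was 225, 218 and 179.8 in Tan I replicates 1 to 3, against 97.1, 136 and 111 in DMSO replicates 1 to 3. The groups did not overlap, and the lowest Tan I library held 209 reads where the highest DMSO library held 112. The mean was 208 ± 24.2 in Tan I and 115 ± 19.7 in DMSO (SD, n = 3), with a log2 change of 0.86 ± 0.15 (SE) and an adjusted p of 0.00777. The call was lost on leaving out Tan I replicate 2 (adjusted p 0.0536) or the mean-variance trend (adjusted p 0.0759), and its adjusted p lay between 0.000142 and 0.0759 across the 18 alternatives. The paralog blvra (ENSDARG00000059857), the main biliverdin reductase of adult mammals, had 113, 93.6 and 104 in Tan I replicates 1 to 3, against 109.8, 110.5 and 115 in DMSO replicates 1 to 3. Its groups overlapped, at a log2 change of -0.11 ± 0.14 (SE, adjusted p 0.765).

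**Figure D2:**
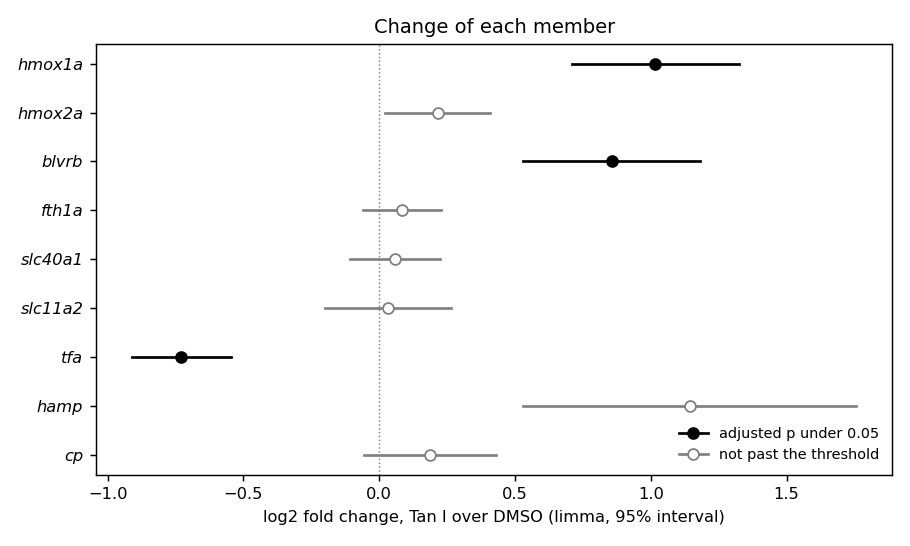
Log2 change (log2 of the fold change) of each member, Tan I over DMSO (horizontal axis), with its 95% interval from limma; filled black points passed an adjusted p under 0.05 and open grey points did not. The intervals of hmox1a (0.71 to 1.32), blvrb (0.53 to 1.18) and tfa (-0.91 to -0.55) lie away from 0, as does that of hamp (0.53 to 1.76), whose adjusted p was 0.0540.

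Iron storage was compared next. The member fth1a (ENSDARG00000015551) had 16262, 15806 and 15753 in Tan I replicates 1 to 3, against 15568, 15309 and 14290 in DMSO replicates 1 to 3. The groups did not overlap, but the lowest Tan I library and the highest DMSO library differed by little. The mean was 15940.4 ± 279.9 in Tan I and 15056 ± 676 in DMSO (SD, n = 3). Its log2 change of 0.08 ± 0.07 (SE) did not pass, with a 95% interval of -0.06 to 0.23 and an adjusted p of 0.598. No alternative put it past the threshold.

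The other ferritin heavy chain rows are given beside fth1a. They come from the list of iron storage and chaperones and are fth1b and 7 rows of the ferritin heavy chain-like (fthl) symbols fthl27 to fthl31. In the RefSeq annotation of another assembly (GRCz12tu), these 5 symbols lie next to each other, with no other protein-coding gene between them. They may be close copies, and since only uniquely mapped reads were counted, the rows can lose or exchange reads, so the single values are uncertain. The fthl27 row ENSDARG00000031776 had 4915, 4280 and 3826 in Tan I replicates 1 to 3, against 2820.4, 2897 and 3013 in DMSO replicates 1 to 3. All Tan I libraries lay above all DMSO libraries, with a log2 change of 0.57 ± 0.08 (SE) and an adjusted p of 0.00230, a call lost only without the mean-variance trend (adjusted p 0.0901).

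Among the weaker copies, fthl28 (ENSDARG00000076221) had 867, 446 and 259 in Tan I replicates 1 to 3, against 188, 205 and 196 in DMSO replicates 1 to 3. The fthl31 row ENSDARG00000094210 had 768, 447 and 237 in Tan I replicates 1 to 3, against 193, 187.0 and 167 in DMSO replicates 1 to 3. Both were highest in Tan I replicate 1 and lay nearest to the DMSO range in Tan I replicate 3, as hmox1a did. Their log2 changes were 1.24 ± 0.30 and 1.25 ± 0.29 (SE), with adjusted p of 0.0463 and 0.0411. Both calls were fragile. Without Tan I replicate 1 the log2 changes were 0.79 and 0.84 (adjusted p 0.0744 and 0.0969), and each was also lost without Tan I replicate 2 and without any single DMSO library, at adjusted p of 0.0802 to 0.163. DESeq2 on the recovered reads gave adjusted p of 0.102 for fthl28 and 0.0860 for that fthl31 row, whereas edgeR called both.

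The other fthl rows were not past the threshold in the limma fit with trend. The second fthl27 row (ENSDARG00000116586) had 588, 256 and 138.5 in Tan I replicates 1 to 3, against 93.6, 107 and 105 in DMSO replicates 1 to 3, with a log2 change of 1.43 ± 0.36 (SE, adjusted p 0.0557). That row passed under 5 of 18 alternatives, edgeR among them. For fthl29 and fthl30 the log2 changes were 0.74 and 0.71 (limma adjusted p 0.0950 and 0.126), with no overlap of the groups. The second fthl31 row (ENSDARG00000113150) had 85.5 in Tan I replicate 1 and 13.1 and 8.60 in the other 2 Tan I libraries, against 6.07 to 11.6 in DMSO. It thus stood apart in a single library. In contrast, fth1b (ENSDARG00000007975) had 469 to 492 in Tan I and 463 to 474 in DMSO, with a log2 change of 0.03 ± 0.08 (SE, adjusted p 0.887).

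**Figure D3:**
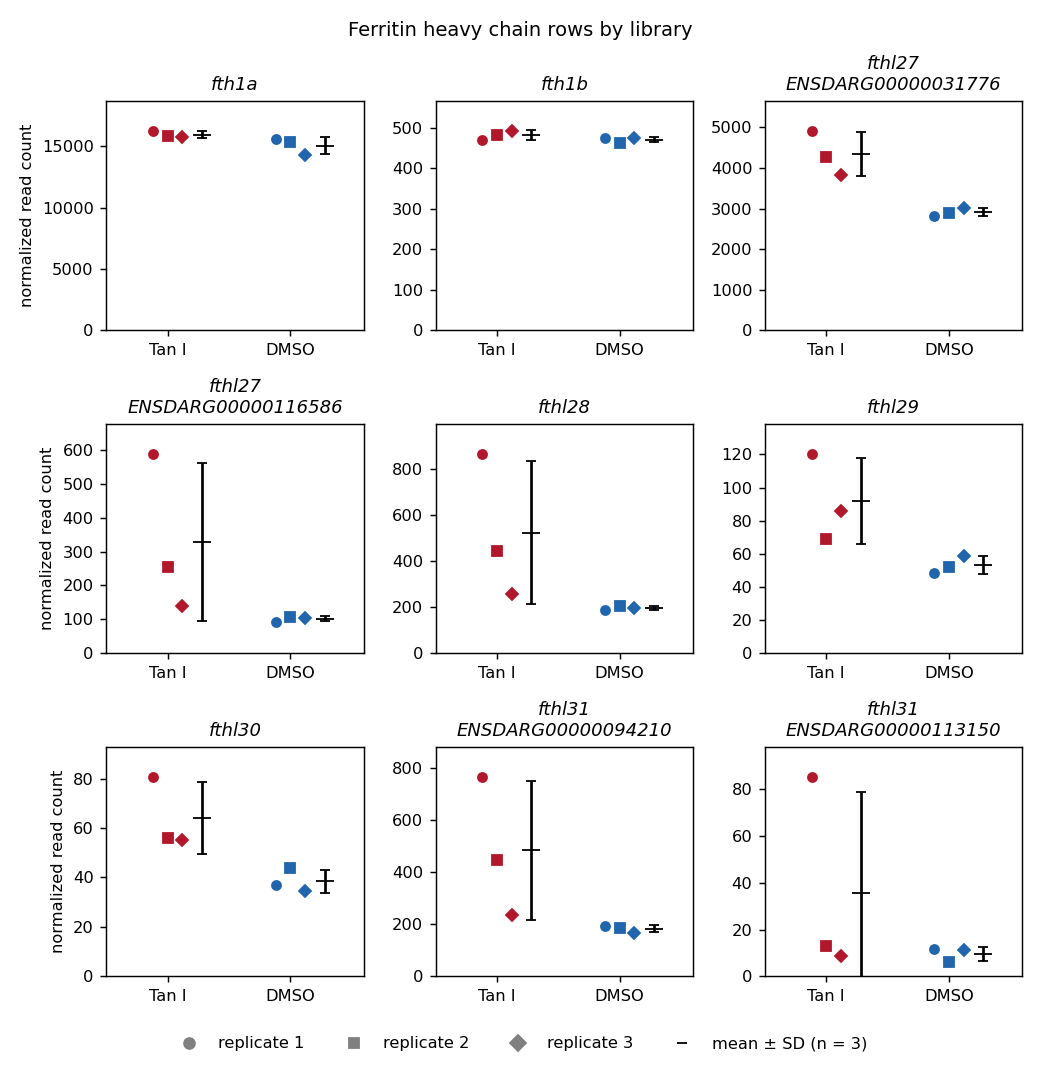
Normalized read count (vertical axes, from 0) of the 9 ferritin heavy chain rows in the 3 Tan I libraries (red) and the 3 DMSO libraries (blue), with the mean ± SD in black; the lower SD bar of the Tan I group in the last panel is clipped at 0. The fth1a and fth1b values are close in both groups. In contrast, 6 of the 7 fthl rows are higher in every Tan I library than in any DMSO library. Tan I replicate 1 is highest in all 7. The 7 rows may be close copies that exchange reads, and the groups did not overlap for 21.1% of all tested genes.

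Since reads can pass between close copies, the fthl rows were also summed, a sum chosen after their values were seen. The sum of the 7 rows was 7426, 5566 and 4611 in Tan I replicates 1 to 3, against 3393, 3498 and 3585 in DMSO replicates 1 to 3. It was 1.68 times higher by the means, and no library of a group lay in the range of the other. As a share of all 9 ferritin heavy chain rows, the fthl rows held 30.7%, 25.5% and 22.1% in Tan I replicates 1 to 3, against 17.5%, 18.2% and 19.5% in DMSO replicates 1 to 3. The difference of 7.72 percentage points had an exact 2-sided permutation p of 0.1, the smallest possible here and a description only. Over all 9 rows the sum was 22289 ± 1693 in Tan I and 19018 ± 585 in DMSO (SD, n = 3), and thus 1.17 times higher by the means.

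**Figure D4:**
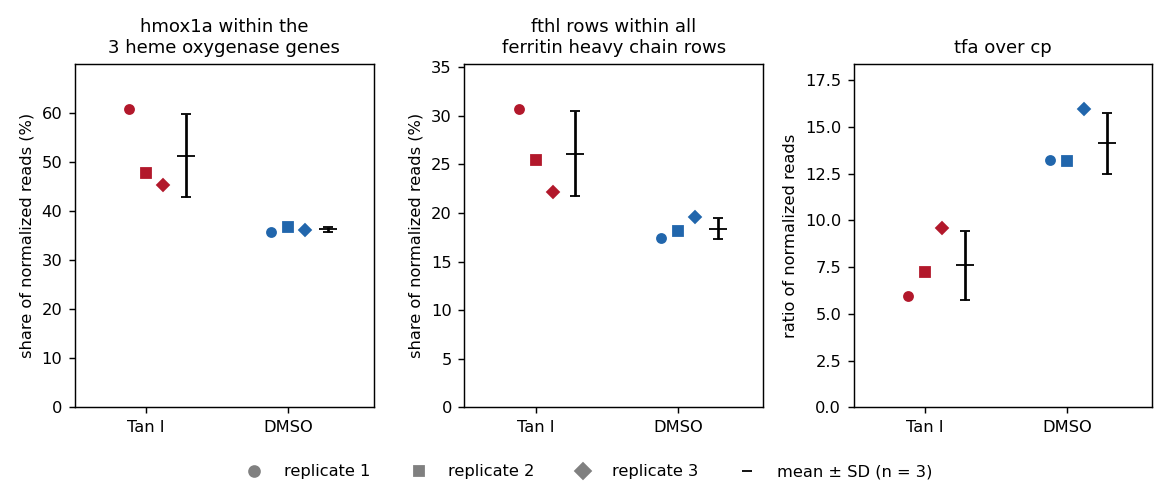
Share of hmox1a in the normalized reads of 3 heme oxygenase genes (left), share of the fthl rows in all ferritin heavy chain rows (middle) and ratio of tfa to cp (right) in the 3 Tan I libraries (red) and the 3 DMSO libraries (blue), with the mean ± SD in black. No library of a group lies in the range of the other group in any panel. The exact permutation p was 0.1 each time, the smallest possible with 3 against 3. The ratios were chosen with results or values known, so this p is a description only.

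Membrane transport of iron was compared by 2 members. The ferroportin gene slc40a1 (ENSDARG00000000241) had 1917, 1633 and 1796 in Tan I replicates 1 to 3, against 1725, 1608 and 1795 in DMSO replicates 1 to 3. The ranges overlapped almost wholly, and the log2 change of 0.06 ± 0.08 (SE) had a 95% interval of -0.11 to 0.22 (limma adjusted p 0.775). For slc11a2 (ENSDARG00000024295), the importer of ferrous iron also known as DMT1, the counts were 700.4, 748 and 649 in Tan I replicates 1 to 3, against 817, 618 and 629.5 in DMSO replicates 1 to 3. DMSO replicate 1 was the highest of all 6 libraries. The log2 change of 0.03 ± 0.11 (SE) had a 95% interval of -0.20 to 0.26 (limma adjusted p 0.920), and its sign changed when Tan I replicate 2, DMSO replicate 2 or DMSO replicate 3 was left out.

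The plasma proteins of iron transport gave the only fall among the members. The transferrin gene tfa (ENSDARG00000016771) had a normalized count of 14282, 13460 and 16779 in Tan I replicates 1 to 3, against 23866, 25056 and 24507 in DMSO replicates 1 to 3. Every Tan I library lay under every DMSO library, and Tan I replicate 3 was the nearest to them. The mean was 14840.2 ± 1728 in Tan I and 24476 ± 596 in DMSO (SD, n = 3), a log2 change of -0.73 ± 0.08 (SE) with an adjusted p of 0.000303. The call held under all 18 alternatives, at adjusted p of 7.40e-14 to 0.0433 and log2 changes of -0.82 to -0.66.

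The ferroxidase gene cp (ENSDARG00000010312) did not fall with it. Its normalized count was 2397, 1857 and 1749.99 in Tan I replicates 1 to 3, against 1808, 1903 and 1534 in DMSO replicates 1 to 3, and the groups overlapped. The log2 change was 0.19 ± 0.11 (SE) with a 95% interval of -0.05 to 0.43 and an adjusted p of 0.460. The ratio of tfa to cp, chosen after the values were seen, was 5.96, 7.25 and 9.59 in Tan I replicates 1 to 3, against 13.2, 13.2 and 16.0 in DMSO replicates 1 to 3. On the log2 scale it averaged 2.90 ± 0.35 in Tan I and 3.81 ± 0.16 in DMSO (SD, n = 3). The difference of -0.92 had an exact 2-sided permutation p of 0.1, the smallest possible here and a description only.

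As the liver is a known source of tfa and cp, liver markers are given beside them. Other tissues in these bulk samples may express these genes and the markers as well. Of the 14 liver marker rows, 4 were called lower in Tan I (ttr, uox, serpina1 and serpina1l) and 0 higher, with a median log2 change of -0.16. Among all tested genes 0.504% were called lower and 2.07% higher. The summed level of the list was 76041 to 85967 in Tan I and 80521 to 85078 in DMSO, so these ranges overlapped. Most of this sum was the row of apoa2, at 54661 to 62135 in Tan I and 57472.5 to 61408 in DMSO. The groups did not overlap for 5 rows lower in Tan I and 1 higher, against 21.1% of all tested genes. Of the defining liver genes, fabp10a, a liver fatty acid binding protein, had a log2 change of -0.53 (limma adjusted p 0.0895), and the fibrinogen gene fgb one of 0.11 (limma adjusted p 0.603). DESeq2 called fabp10a as well, and 5 of the 14 rows in all. The part of liver size, liver output or other tissues in the change of tfa was not tested.

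Hepcidin RNA was weak. The count of hamp (ENSDARG00000102175) was 50.5, 49.6 and 68.0 in Tan I replicates 1 to 3, against 33.5, 15.8 and 27.8 in DMSO replicates 1 to 3, from 53 to 79 reads per Tan I library and 13 to 29 reads per DMSO library. The groups did not overlap, but the DMSO libraries differed among themselves by a coefficient of variation of 35.2%. The log2 change of 1.14 ± 0.28 (SE), with a 95% interval of 0.53 to 1.76, missed the threshold narrowly (adjusted p 0.0540 in limma). It passed under 6 of 17 alternatives, among them DESeq2 (adjusted p 0.0261), sample quality weights (0.0118), thinning to equal depth (0.0319) and the fit without DMSO replicate 1 (0.0340), and the adjusted p ran from 0.0118 to 0.201 over them all. Upstream regulators of hepcidin were in the list of iron sensing and hepcidin control, of which 0 of 11 tested rows were called by limma and 0 had an unadjusted p under 0.05, and the count by DESeq2 and by edgeR was also 0. In this list the receptor gene bmpr1ab (ENSDARG00000105045) had 833, 791 and 707 in Tan I replicates 1 to 3, against 653, 682 and 723 in DMSO replicates 1 to 3, with a log2 change of 0.18 ± 0.08 (SE, adjusted p 0.342). The groups overlapped for this gene and for bmp6. bmp6 (ENSDARG00000015686), a ligand that raises hepcidin in mouse liver, had 189, 179.8 and 132 in Tan I replicates 1 to 3, against 149, 132 and 119 in DMSO replicates 1 to 3, with a log2 change of 0.31 ± 0.16 (SE, adjusted p 0.381).

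Other genes of iron and heme handling were then read from 6 lists. Of their 75 tested rows, 8 were called, all higher, or 10.7% against 2.57% of all genes. These lists were chosen with earlier results known and 7 of the rows may be close copies, so the 2 shares are given as a description. Apart from the 3 fthl rows, these were slc39a8, hebp2, abcb6a, pgrmc1 and isca1. In the list of iron uptake and transport, the median log2 change was -0.06. The groups did not overlap for 4 rows higher in Tan I and 5 lower, against 21.1% of all tested genes. Of its 15 rows, 1 was called. This was slc39a8 (ENSDARG00000056757), a carrier of zinc, manganese and iron, with 131, 136 and 147 in Tan I replicates 1 to 3, against 63.6, 77.7 and 69.0 in DMSO replicates 1 to 3. Its log2 change of 0.97 ± 0.15 (SE, adjusted p 0.00319) was called under all 18 alternatives.

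The receptors that take up transferrin did not pass the test. For tfr1a (ENSDARG00000101322), the receptor that red cell precursors of zebrafish depend on, the counts were 499, 484 and 508 in Tan I replicates 1 to 3, against 652, 606 and 569 in DMSO replicates 1 to 3. Every Tan I library lay under every DMSO library, at a log2 change of -0.29 ± 0.08 (SE) and an adjusted p of 0.0956. Its paralog tfr1b (ENSDARG00000077372) had a log2 change of -0.18 ± 0.09 (SE, adjusted p 0.370), and its groups overlapped. Both receptors were named after their values were seen.

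In the list of heme transport and breakdown, the median log2 change was -0.01. Of its 16 rows, 3 were called, all higher, against 2.57% of all tested genes. They were hebp2 (ENSDARG00000042630), named for heme binding, abcb6a (ENSDARG00000063297), whose human counterpart moves porphyrins, and pgrmc1 (ENSDARG00000054172), which encodes a heme-binding membrane protein. The normalized count of hebp2 was 884, 757 and 813 in Tan I replicates 1 to 3, against 457, 483 and 508 in DMSO replicates 1 to 3. Its log2 change of 0.76 ± 0.09 (SE) had an adjusted p of 0.000245 and was called under all 18 alternatives. The counts of abcb6a were 212, 201.3 and 193 in Tan I replicates 1 to 3, against 134, 108 and 120.1 in DMSO replicates 1 to 3, a log2 change of 0.74 ± 0.13 (SE, adjusted p 0.00679) that was lost without DMSO replicate 2 (adjusted p 0.0510). The smaller rise of pgrmc1, 0.35 ± 0.08 (SE, adjusted p 0.0301), was lost under 6 of 18 alternatives, among them the fits without Tan I replicate 2 or 3 and without DMSO replicate 1 or 2 (adjusted p 0.0679 to 0.177).

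Among the 10 genes of heme synthesis 0 were called by limma, and 3 had an unadjusted p under 0.05. alas1 (ENSDARG00000021059), the first enzyme of the pathway outside red cells, had 3286, 3478 and 3300.4 in Tan I replicates 1 to 3, against 3115, 2551 and 2490.3 in DMSO replicates 1 to 3. The groups did not overlap, and its log2 change was 0.31 ± 0.08 (SE, adjusted p 0.0777), which DESeq2 put past the threshold (adjusted p 0.0394) and so did the fit without DMSO replicate 1 (adjusted p 0.00936). alas2 (ENSDARG00000038643), the red cell form, had 1098, 963 and 977 in Tan I replicates 1 to 3, against 1096, 1400.04 and 1118 in DMSO replicates 1 to 3, with a log2 change of -0.24 ± 0.10 (SE, adjusted p 0.249). The groups overlapped. By DESeq2 1 of the 10 was called and by edgeR 0.

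**Figure D5:**
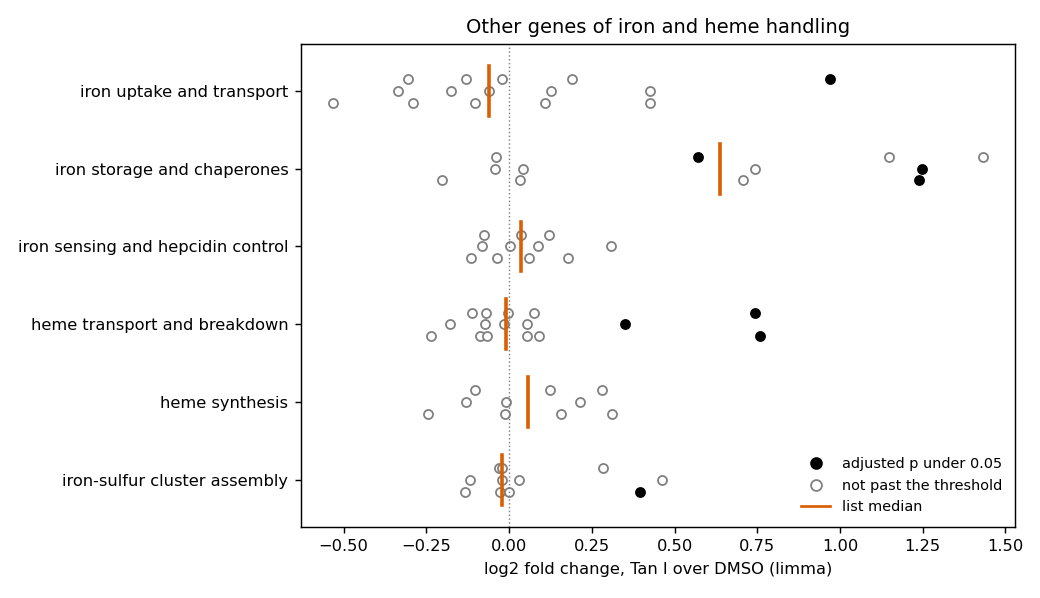
Log2 change (log2 of the fold change), Tan I over DMSO (horizontal axis), of each tested row in the 6 lists of other iron and heme genes (vertical axis); filled points passed an adjusted p under 0.05, open points did not, and the orange line is the median of the list. All 8 called rows lie right of 0. The median of iron storage and chaperones (0.64) lies right of the other 5 medians, which run from -0.06 to 0.06. Of the 12 rows of that list, 7 are fthl rows, which may exchange reads. The rest of its rows run from -0.20 (pcbp3) to 0.04 (pcbp4).

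Genes outside iron handling that Nrf2 is known to drive in vertebrates are given beside hmox1a, blvrb and the fthl rows. Of 14 such rows, 7 were called, all higher, against 2.57% of all tested genes called. This list was chosen with earlier results known, so the comparison is given as a description only. The median log2 change of the 14 was 0.37. The 7 rows not called were nqo1, gclm, me1, slc7a11, srxn1, txnrd3 and taldo1, at limma adjusted p of 0.0926 to 0.814. The summed level of the 14 rows was 28566 to 30248 in Tan I and 17043 to 17374 in DMSO. Of this, gstp1 alone held 10099 to 11498 in Tan I and 4352 to 4541 in DMSO. The glutathione transferase genes gstp1 and gstp2 rose by 1.26 and 1.74 on the log2 scale, and ugdh, which makes the sugar acid for glucuronidation, by 1.12. The part of Nrf2 in these changes was not tested.

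Macrophages and erythroid cells, known for heme and iron turnover, and granulocytes were checked by marker lists. In bulk embryo samples other cells may express these genes too, so no row or sum stands for a single cell type. Of 9 macrophage marker rows, 0 were called by limma and 5 had a log2 change above 0. An unadjusted p under 0.05 was found for 2, csf1ra (0.45) and marco (-0.80 on the log2 scale). The log2 change was -0.15 for mpeg1.1, whose groups overlapped. It was -0.61 for mfap4 (limma adjusted p 0.380), with 18.7 to 20.6 in Tan I and 22.0 to 50.1 in DMSO. The 9 rows summed to 1959 to 2184 in Tan I and 1796 to 2070.2 in DMSO. The largest part of this sum was cd9b, at 836 to 1022 in Tan I and 794 to 932 in DMSO. DESeq2 called csf1ra (adjusted p 0.0196) at a log2 change of 0.46, and edgeR called 0 rows. Of 9 granulocyte marker rows 0 were called by limma and 5 had an unadjusted p under 0.05, with 1 called by DESeq2 (mpx) and 1 by edgeR (mmp13a). All 9 were above 0, with a median log2 change of 0.43, and they summed to 4840, 7671 and 4015 in Tan I replicates 1 to 3, against 3588 to 3839 in DMSO. For lyz the log2 change was 0.43 (limma adjusted p 0.290), and its groups overlapped. For cpa5 and cebpa it was 0.09 each. The largest part of the DMSO sum was cpa5, at 969 to 1185 there and 1131 to 1231 in Tan I. The high sum of Tan I replicate 2 was carried by mmp9, at 1449 there and 469 and 175 in Tan I replicates 1 and 3, and by the mmp13a row ENSDARG00000114451, at 1909 there and 155 and 70.6 in the same libraries. In DMSO, mmp9 had 169 to 254 and that mmp13a row 79.0 to 95.9. The other mmp13a row, ENSDARG00000012395, had 192, 531 and 92.1 in Tan I replicates 1 to 3, against 74.0, 69.2 and 35.6 in DMSO replicates 1 to 3 (limma adjusted p 0.0552), and mpx had a log2 change of 0.40 (limma adjusted p 0.102). The highest of the 6 libraries for this mmp13a row was Tan I replicate 2. Of 14 erythroid marker rows, 2 had a log2 change above 0. By limma, 1 row was called higher (hbbe3) and 2 lower (hbbe2 and the hbae1.3 row ENSDARG00000089124). DESeq2 called hbae3 lower as well. Of all tested genes, 2.07% were called higher and 0.504% lower. The erythroid rows had a median log2 change of -0.21. Their sum was 41344 to 42532 in Tan I and 46896 to 53499 in DMSO, lower in each Tan I library. The largest part of this sum was hbae3, at 16872 to 20946 in Tan I and 22993 to 25107 in DMSO. Globin copies can exchange reads. The part of these cell types in the changes of hmox1a, blvrb and tfa was not tested.

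The genes whose values followed hmox1a most closely were sought among the 15066 others with a mean of at least 100. The Pearson r of log2 values over the 6 libraries was highest for ppat (0.997), adam10a (0.994), chmp2bb (0.993), the fthl27 row ENSDARG00000031776 (0.993) and cdh17 (0.993). The 6 points share libraries and treatment, so r describes these libraries only, and how these 5 genes differ between the groups follows from how they were picked.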

How the data were processed

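Per the study's methods and the submitters' processing notes, paired-end Illumina reads of 6 libraries were aligned to GRCz11 with STAR, reads mapped to several places were removed, genes were counted with featureCounts, and DESeq2 was used. Versions, annotation release and strand setting were not given in the sources used here, so overlapping and antisense genes are uncertain. The signal deposited by the authors is the read count of a gene after scaling each library by its own size factor. Columns of the authors' own comparison (mean, log2 fold change, its error, score, p-values) were not used. Each value was within 0.1 of a whole multiple of 1 step per library, and dividing by it gave whole reads for 100% of values. The smallest mean in the table was 7.54.

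Values were analysed as log2(value + 1) for 20836 genes with a mean of at least 10 (481 left out), with limma 3.58.1 (lmFit, eBayes with trend) in R 4.3.3, without covariates, 2-sided, Benjamini-Hochberg over all tested genes. Alternatives, 18 in all, were pseudocounts of 0.1 and 10, no filter, a stricter mean of 100, scaling by upper quartile or by quantiles, no trend, sample quality weights, DESeq2 1.42.0 and edgeR 4.0.16 on recovered reads, thinning to the smallest library, the replicate block and leaving out each library. The tests were also run on simulated counts with known changes, and no result given here rests on that run. The simulated libraries were independent, so the run does not cover libraries of a shared origin. Gene symbols were those of the table. The members and 12 further gene lists were chosen with earlier results of these data known. All members were named, and from each list up to 3 called genes per direction by smallest p, or, with none called, the 2 with the smallest p. Paralogs of members and a few other genes of the lists were named after their values were seen. Sequences were not used here.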

Additional observations from a re-analysis of the deposited data

How the results depend on the processing

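For the 9 members, 161 values were computed under alternatives. Of these, 152 stayed on the same side of the threshold as in the limma fit with trend, 3 calls were lost (hmox1a once, blvrb in 2 cases) and hamp passed in 6. No called member changed sign, and 3 values of slc11a2, which was not called, did. Thus 2 to 4 members were called in each fit, except without the trend, where 1 was (tfa). Over all tested genes, the 536 calls became 165 without the trend and 984 with sample quality weights, and between 213 (without DMSO replicate 2) and 709 (without Tan I replicate 3) when single libraries were left out, among them 330 (Tan I replicate 1 left out) and 258 (Tan I replicate 2 left out). The 8 called rows of the 6 iron and heme lists became 3 without the trend, 13 with sample quality weights, and 3 to 9 when single libraries were left out, with 4 without Tan I replicate 2, 5 without DMSO replicate 1 and 3 without DMSO replicate 2. The cause was not tested. Under each scaling the median log2 change of all genes stayed within 0.1 of its value. Thinning all libraries to the smallest depth kept the calls of hmox1a, blvrb and tfa.

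With the replicate block, 1093 genes, 4 members and 14 rows of the lists were called. After subtracting group means, libraries with the same number had correlations of 0.081, -0.029 and 0.21 over genes, and for 2 of 3 numbers the library of the same number was the best match. The labels tie the numbers to no clutch or day and not every correlation was over 0.1, so the libraries were not treated as paired, and whether they share an origin is not known. Counts as low as those of hamp limit what can be shown.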

Other observations

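Iron-sulfur clusters are built in mitochondria from iron and sulfur. Of 11 tested rows for their assembly, 1 was called higher in Tan I and 0 lower, against 2.07% and 0.504% of all tested genes. The median log2 change was -0.02. The called gene was isca1 (ENSDARG00000051956), a late assembly factor, with 1469.9, 1343 and 1285 in Tan I replicates 1 to 3, against 984, 1084 and 1044 in DMSO replicates 1 to 3. Its log2 change was 0.40 ± 0.08 (SE, adjusted p in limma 0.0134). The call was lost without Tan I replicate 2, DMSO replicate 1 or DMSO replicate 2 (adjusted p 0.0511 to 0.0587), and without the mean-variance trend (0.128). Neither nfs1, the sulfur donor enzyme (0.28, limma adjusted p 0.0838), nor the scaffold gene iscub (0.46, limma adjusted p 0.159) passed the test. The groups did not overlap for 3 rows of the list, both of these among them, against 21.1% of all tested genes.

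In feeding animals, enterocytes take up iron from food. Of 8 enterocyte marker rows, 3 were called, in both directions, against 2.57% of all tested genes. Other tissues of the embryo may express these genes as well. The chitinase gene chia.2 averaged 968 in Tan I and 409 in DMSO, the peptide carrier gene slc15a1b rose by 0.69 on the log2 scale, and the ileal bile acid binding gene fabp6 fell by 0.62 (limma adjusted p 0.00302, 0.00628 and 0.00726). The brush border gene vil1 had a log2 change of 0.32 (limma adjusted p 0.0672, called by DESeq2). The summed level of the list was 91411 to 108497 in Tan I and 87344 to 97542 in DMSO, and these ranges overlapped. Most of this sum was the row of apoa1b, at 71841 to 86236 in Tan I and 69994 to 80014 in DMSO. The sum thus says little about the weaker rows, and 6 of the 8 rows had a log2 change above 0.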
